A study of Homo sapiens with 6 samples.

Results

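The 65 genes described here encode nucleoporins and the soluble factors of transport between nucleus and cytoplasm. They were picked by a rule on symbols out of 19821 coding genes of chromosomes 1 to 22 and X. The rule was chosen with earlier results of these data known. It takes in nucleoporins, importins, transportins, exportins, karyopherins, Ran-binding proteins, and named pore and Ran cycle genes. A gene was counted as marked when a peak touched the window of 1 kb either side of one of its ends. U2OS cells, a human osteosarcoma line, were treated with 1,6-hexanediol (HD), an alcohol that dissolves many biomolecular condensates, or left untreated (Ctrl). Sites of G-quadruplexes (G4s), stacked structures of guanine-rich DNA, were found in both with the antibody BG4 in a ChIP-seq experiment. There were 2 ChIP libraries and 1 input library for HD and as many for Ctrl, and 1 peak list for each was analysed here. With 1 list for each condition, the values have no replicate error, and no difference between the conditions was tested. The intervals given are exact 95% intervals. Those on fragments and their ratios cover counting error only, and those on shares of genes treat genes as independent draws. For the treatment, neither dose nor duration is stated in the labels.

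Nuclear pore complexes are ring-shaped channels through the nuclear envelope, built from nucleoporins in a scaffold, a channel lining, filaments on the cytoplasmic face and a basket on the nuclear face. Many channel nucleoporins carry repeats of phenylalanine and glycine, which form the selective barrier and which hexanediol is widely used to disturb. Importins and exportins carry cargo through this barrier, and the small GTPase Ran sets the direction by binding them in its GTP form in the nucleus. The data here concern G4 signal on the DNA at the genes of these proteins, not the proteins or their transcripts.

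The HD list held 2269 peaks and the Ctrl list 3507, of which 2172 HD and 3376 Ctrl peaks lay on the chromosomes counted here. All 2269 HD peak names carry the number of replicate 1, so whether the HD list rests on both libraries is not known. Fragment numbers at the summits were recovered from the authors' fold and p-value, and the genome-wide mean was 5.51 ChIP fragments over a position in HD and 3.74 in Ctrl. Levels are given below as fragments and as multiples of this mean of the same list. The lowest number at a listed summit was 20 fragments in HD and 15 in Ctrl.

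Sequences from 250 bases before to 50 bases after an annotated start site were at hand for 57 of the 65 genes (RefSeq, GRCh38.p14, the assembly of hg38). KPNB1, KPNA4, KPNA5, KPNA7, NUP43, XPO7, GLE1 and RANBP1 had none. They were searched on both strands for the canonical quadruplex motif, which has 4 or more runs of at least 3 G, or of at least 3 C where the G lie on the other strand, with loops of 1 to 7 bases. The motif stood in a promoter of 5 marked genes inside the marking peak. Those promoters are printed here 5′ to 3′ on the gene's strand, with stretches of overlapping motif matches in capitals. Each overlaps a marking peak in part or in whole. The HD summits of KPNA2 and XPO1, and the SEH1L summits in HD and Ctrl, lie outside the printed sequence.
KPNA2, chr17:68035485-68035784, plus strand: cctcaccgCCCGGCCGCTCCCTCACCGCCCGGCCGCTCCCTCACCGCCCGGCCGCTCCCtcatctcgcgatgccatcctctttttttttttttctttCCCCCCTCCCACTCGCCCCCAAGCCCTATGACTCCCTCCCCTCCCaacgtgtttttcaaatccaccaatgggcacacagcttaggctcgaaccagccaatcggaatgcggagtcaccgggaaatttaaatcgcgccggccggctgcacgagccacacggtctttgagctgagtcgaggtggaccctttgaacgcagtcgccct
NUP98, chr11:3797505-3797804, minus strand: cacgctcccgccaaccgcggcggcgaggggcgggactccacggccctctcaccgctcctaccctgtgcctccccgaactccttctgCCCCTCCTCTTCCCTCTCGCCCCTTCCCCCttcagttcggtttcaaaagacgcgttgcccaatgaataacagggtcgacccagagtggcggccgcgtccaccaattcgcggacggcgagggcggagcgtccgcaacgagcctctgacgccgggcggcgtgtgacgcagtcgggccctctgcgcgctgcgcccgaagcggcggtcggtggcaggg
SEH1L, chr18:12947761-12948060, plus strand: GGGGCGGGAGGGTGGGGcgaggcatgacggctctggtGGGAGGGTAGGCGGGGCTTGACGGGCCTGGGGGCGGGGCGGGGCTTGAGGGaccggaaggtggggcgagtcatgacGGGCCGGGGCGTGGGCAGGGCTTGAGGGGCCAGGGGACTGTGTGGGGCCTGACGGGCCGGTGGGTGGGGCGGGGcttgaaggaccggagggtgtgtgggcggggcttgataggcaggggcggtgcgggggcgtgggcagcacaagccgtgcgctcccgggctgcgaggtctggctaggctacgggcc
XPO1, chr2:61538307-61538606, minus strand: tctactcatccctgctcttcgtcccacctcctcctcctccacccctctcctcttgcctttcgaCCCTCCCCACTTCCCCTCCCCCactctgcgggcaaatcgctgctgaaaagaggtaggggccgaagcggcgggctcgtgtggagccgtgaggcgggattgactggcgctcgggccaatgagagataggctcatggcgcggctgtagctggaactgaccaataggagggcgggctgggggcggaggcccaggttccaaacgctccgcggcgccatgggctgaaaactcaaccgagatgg
RAN, chr12:130871816-130872115, plus strand: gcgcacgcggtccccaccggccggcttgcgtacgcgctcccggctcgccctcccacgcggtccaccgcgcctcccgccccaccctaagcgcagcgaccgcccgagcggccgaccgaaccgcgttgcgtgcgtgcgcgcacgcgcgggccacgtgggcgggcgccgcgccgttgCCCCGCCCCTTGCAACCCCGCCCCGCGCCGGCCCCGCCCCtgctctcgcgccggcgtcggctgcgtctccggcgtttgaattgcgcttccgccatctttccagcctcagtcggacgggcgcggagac

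The G runs lay on the strand opposite to the gene in 5 of the 8 stretches that lay in a peak of at least 1 list, read as C runs above. They were those of KPNA2, NUP98, XPO1 and RAN, while the 3 stretches of SEH1L had the G on the gene's own strand. In KPNA2 the first stretch is a repeated unit, 242 to 192 bases before the start site, and the second runs 153 to 109 bases before it. The SEH1L stretches fill much of the sequence between 250 and 64 bases before its start site. In NUP98 the stretch lay 13 bp from the HD summit and 57 bp from the Ctrl summit. In XPO1 it lay 184 bp from the HD summit and 35 bp from the Ctrl summit, and in RAN, marked in Ctrl only, 84 bp from the summit. In KPNA2 the first stretch lay 84 bp from the HD summit and 126 bp from the Ctrl summit, outside the Ctrl peak, and the second lay 173 bp from the HD summit and 43 bp from the Ctrl summit. The SEH1L stretches were the farthest of these 5 genes, 334 to 504 bp from the HD summit and 331 to 501 bp from the Ctrl summit. All 3 lay in the Ctrl peak, whereas the HD peak held 1 whole, 1 in part and 1 not at all.

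The motif and the peaks did not always stand together. The other 9 marked genes with a promoter sequence had no motif match inside the marking peak within the searched windows. One of them, NUP50, has 4 matching stretches, but they lie at a second start site and the HD peak lies at the first. Of the 43 unmarked genes with a promoter sequence, 15 had the motif (34.9%), beside 35.2% of all protein-coding genes marked in neither list. The following promoters show the contrast: those of CSE1L and IPO11 lay largely under a peak and have no match, and that of NUP210, chosen after its 4 matching stretches were seen, lay 59.7 kb from the nearest peak of either list.
CSE1L, chr20:49046062-49046361, plus strand: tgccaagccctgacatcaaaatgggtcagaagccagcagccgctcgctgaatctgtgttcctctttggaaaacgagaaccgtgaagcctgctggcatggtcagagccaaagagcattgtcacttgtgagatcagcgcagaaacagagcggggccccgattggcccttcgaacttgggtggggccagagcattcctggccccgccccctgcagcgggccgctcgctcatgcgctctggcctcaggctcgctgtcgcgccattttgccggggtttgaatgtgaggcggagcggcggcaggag
IPO11, chr5:62412513-62412812, plus strand: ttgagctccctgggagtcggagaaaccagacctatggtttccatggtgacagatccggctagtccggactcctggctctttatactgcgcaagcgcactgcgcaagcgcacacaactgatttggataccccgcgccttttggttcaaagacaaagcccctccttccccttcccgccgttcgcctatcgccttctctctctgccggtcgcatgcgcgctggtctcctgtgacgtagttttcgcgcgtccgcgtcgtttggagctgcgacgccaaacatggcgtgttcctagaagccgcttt
NUP210, chr3:13420273-13420572, minus strand: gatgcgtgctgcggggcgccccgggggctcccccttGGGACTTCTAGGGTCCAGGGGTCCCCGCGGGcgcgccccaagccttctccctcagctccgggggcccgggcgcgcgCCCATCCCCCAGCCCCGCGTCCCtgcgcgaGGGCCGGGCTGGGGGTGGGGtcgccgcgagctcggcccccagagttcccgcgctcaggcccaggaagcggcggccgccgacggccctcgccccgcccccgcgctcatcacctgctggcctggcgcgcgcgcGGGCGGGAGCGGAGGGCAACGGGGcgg

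Counted over genes, 21 of the 57 with a promoter sequence held the motif (36.8%), beside 36.4% of the 15812 protein-coding genes that had one. Among the marked genes it was 5 of 9 in HD (55.6%) and 5 of 11 in Ctrl (45.5%), where a match in any promoter of the gene counts. The same shares over all marked protein-coding genes were 43.1% in HD and 44.3% in Ctrl. The GC box GGGCGG, read on both strands and free to overlap the G runs, stood in 10 of the 14 genes marked in either list with a promoter (71.4%). By list, it stood in 7 of 9 in HD (77.8%) and 8 of 11 in Ctrl (72.7%). Over all marked protein-coding genes it stood in 85.4% in HD and 86.3% in Ctrl, and over all protein-coding genes in 64.2%. A match describes letters in this window and is not a site. With runs of 2 G allowed, 54 of the 57 genes matched, as did 91.3% of all genes.

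Peaks marked 10 of the 65 genes in HD (15.4%, 7.63 to 26.5) and 13 in Ctrl (20.0%, 11.1 to 31.8). Over all protein-coding genes, 8.11% were marked in HD and 10.9% in Ctrl. Because the members were chosen with earlier results of these data known, their shares were not tested against these. CSE1L, KPNA2, KPNB1, NUP85, NUP98, SEH1L and XPO1 were marked in both lists, 7 genes or 10.8% (4.44 to 20.9), beside 5.20% of all protein-coding genes. NUP214, NUP50 and RANBP10 were marked in HD only. IPO11, IPO13, KPNA4, RAN, RANBP2 and XPO5 were marked in Ctrl only. The genes in both lists were 70.0% (34.8 to 93.3) of the HD-marked and 53.8% (25.1 to 80.8) of the Ctrl-marked members. The corresponding shares were 64.1% of all HD-marked and 47.7% of all Ctrl-marked protein-coding genes. The intervals on shares of members treat genes as independent draws and were not used as a test. The remaining 49 genes had no peak at an end in either list. With the same number of peaks, 2172, taken from each list, 10 members were marked in HD and 10 in Ctrl. At this length 8.11% of all protein-coding genes were marked in HD and 7.83% in Ctrl.

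**Figure D1:**
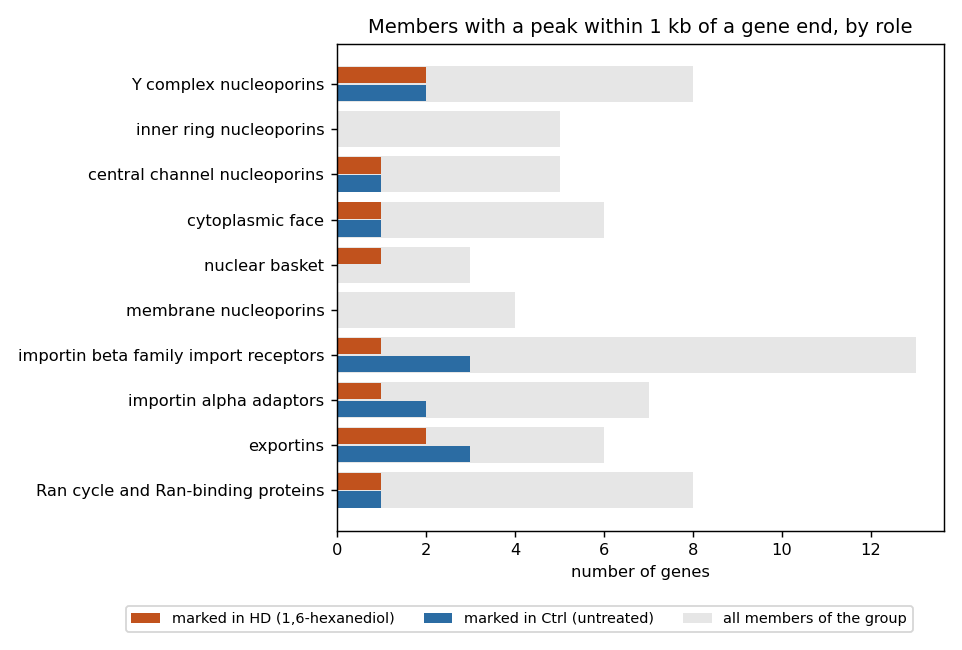
Number of genes with an HD peak (orange) and a Ctrl peak (blue) within 1 kb of a gene end, for each role, over all genes of that role (grey). Inner ring and membrane nucleoporins had no marked gene in either list, and the importin beta family had 1 in HD and 3 in Ctrl, where 8.11% of all protein-coding genes were marked in HD and 10.9% in Ctrl.

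Nucleoporin genes were marked at 5 of 31 in HD and 4 of 31 in Ctrl, and the receptor and Ran genes at 5 of 34 in HD and 9 of 34 in Ctrl. In the Y complex, the scaffold that forms the outer rings, NUP85 and SEH1L were marked in both lists, 2 of 8 genes. In the central channel group NUP98 was marked in both lists, 1 of 5. On the cytoplasmic face NUP214 was marked in HD and RANBP2 in Ctrl, each 1 of 6. Of the 3 nuclear basket genes, NUP50 was marked in HD and none in Ctrl. None of 5 inner ring genes and none of 4 membrane nucleoporin genes was marked in either list. Importin beta family genes were marked at 1 of 13 in HD and 3 of 13 in Ctrl, and importin alpha genes at 1 of 7 in HD and 2 of 7 in Ctrl. Exportin genes were marked at 2 of 6 in HD and 3 of 6 in Ctrl. Of the 8 Ran cycle and Ran-binding genes, RANBP10 was marked in HD and RAN in Ctrl. At the shares over all protein-coding genes, 8.11% in HD and 10.9% in Ctrl, a group of 3 to 13 genes would hold about 1 marked gene or none, so neither the groups without a peak nor the differences between roles are results about the roles.

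KPNB1 encodes importin beta, the receptor that carries most classical cargo into the nucleus, and had the strongest signal of the marked genes in both lists. Its HD peak (gene ID 3837, hg38, chr17:47649258-47650058) held 56 fragments (42.3 to 72.7), 10.2 times the genome-wide mean (7.67 to 13.2). Its Ctrl peak (chr17:47649379-47650087) held 52 fragments (38.8 to 68.2), 13.9 times the mean (10.4 to 18.2). The peaks crossed the lower end of the gene and also touched the window of the noncoding gene KPNB1-DT. By −log10 q the peak ranked 137 of 2269 in the HD list and 122 of 3507 in the Ctrl list. Its fold stood at the 98.2nd percentile of the HD list and the 99.7th percentile of the Ctrl list. The HD to Ctrl ratio of the multiples was 0.730, with an interval of 0.492 to 1.09 that includes 1.

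The other importins were weaker or marked in Ctrl only. KPNA2, an importin alpha adaptor that links cargo to importin beta, had 25 fragments in HD (16.2 to 36.9) and 23 in Ctrl (14.6 to 34.5), or 4.54 times the mean in HD and 6.15 times in Ctrl. Its peaks (HD chr17:68035356-68035692, Ctrl chr17:68035553-68035745) shared 140 bp. Its −log10 q of 1.81 ranked 2204 of 2269 in HD, and its value in Ctrl was 4.40. KPNA4, another importin alpha, had a Ctrl peak of 34 fragments (chr3:160565543-160565809), 9.10 times the mean (6.30 to 12.7), and no HD peak lay closer than 802 kb. IPO13, an importin that also works in export, had a Ctrl peak of 33 fragments (chr1:43946389-43946760), 8.83 times the mean (6.08 to 12.4). IPO11 had a Ctrl peak of 28 fragments (chr5:62412520-62412799), 7.49 times the mean (4.98 to 10.8). The nearest HD peak was 381 kb from that of IPO13 and 106 kb from that of IPO11. The IPO13 peak was shared with the noncoding gene LOC101929609.

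The exportins XPO1 and CSE1L were marked in both lists. XPO1 (CRM1), the main exporter of proteins with leucine-rich export signals, had 38 fragments in HD (26.9 to 52.2) and 29 in Ctrl (19.4 to 41.6), or 6.89 times the mean in HD and 7.76 times in Ctrl. Its peaks (HD chr2:61538426-61538839, Ctrl chr2:61538326-61538772) shared 347 bp, and their summits were 240 bp apart. CSE1L, which returns importin alpha to the cytoplasm, had 34 fragments in HD (23.5 to 47.5) and 26 in Ctrl (17.0 to 38.1), or 6.17 times the mean in HD and 6.96 times in Ctrl. Its summits were 12 bp apart (HD chr20:49046105-49046374, Ctrl chr20:49046131-49046382), in the promoter without a motif match printed above, and the peaks also touched the window of the noncoding gene CSE1L-DT. XPO5, the exporter of precursor microRNAs, had 19 fragments (11.4 to 29.7) in a Ctrl peak (chr6:43575994-43576200) that was shared with POLH. It had the fewest fragments of the 13 Ctrl peaks, at 5.08 times the mean (3.06 to 7.94).

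RAN itself had a Ctrl peak (chr12:130871730-130872048) of 29 fragments (19.4 to 41.6), 7.76 times the mean (5.20 to 11.1), and the nearest HD peak was 1078 kb away. RANBP10, a Ran-binding protein of the cytoplasm, had an HD peak (chr16:67806585-67806811) of 32 fragments (21.9 to 45.2), 5.81 times the mean (3.97 to 8.20). That peak was shared with TSNAXIP1. RANBP1, which helps release GTP-bound Ran from its receptors, had peaks in both lists just outside the window. They began 1.10 kb inside the gene in HD, with 57 fragments (43.2 to 73.9), and 1.07 kb inside it in Ctrl, with 41 fragments (29.4 to 55.6), and lay over an end of TRMT2A. A window of 2 kb adds RANBP1 to both lists and no other member. RANGAP1, the activator of GTP hydrolysis by Ran, had a Ctrl peak of 29 fragments 15.9 kb inside the gene, 192 bp from another annotated start site. RANBP1 and RANGAP1 were singled out after their values were seen.

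Among the marked nucleoporins, SEH1L of the Y complex had the highest multiple of the genome-wide mean in both lists. It did not have the highest level over the local background. This background is the expected fragment number recovered from the fold and p-value. It is never below the genome-wide mean and is not a measured input count. SEH1L had 55 fragments in HD (41.4 to 71.6) and 42 in Ctrl (30.3 to 56.8), or 9.98 times the mean in HD and 11.2 times in Ctrl. The local background at this site was also high, at 12.6 fragments in HD and 12.9 in Ctrl on the same scale. Over this background, SEH1L stood at 4.37 (3.29 to 5.68) in HD and 3.24 (2.34 to 4.38) in Ctrl. By that measure it was below NUP98 (5.44), NUP214 (5.27) and NUP85 (4.59) in HD and the lowest of the 13 marked genes in Ctrl. For NUP98 in HD, the local background was the genome-wide mean itself. The Ctrl peak of SEH1L was the widest of the marked genes, 1170 bp (chr18:12947351-12948520), against 620 bp in HD (chr18:12947836-12948455). NUP85 had 45 fragments in HD (32.8 to 60.2) and 24 in Ctrl (15.4 to 35.7), or 8.16 times the mean in HD and 6.42 times in Ctrl. It was the only member in both lists whose multiple was higher in HD, with a ratio of 1.27 (0.758 to 2.18). Over the local background it stood at 4.59 in HD and 4.44 in Ctrl. The HD peak of NUP85 (chr17:75205277-75205546) lay wholly within its Ctrl peak (chr17:75205132-75205755).

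NUP98 encodes a channel nucleoporin with phenylalanine and glycine repeats and, in the same precursor, a Y complex scaffold protein. It had 30 fragments in HD (20.2 to 42.8) and 31 in Ctrl (21.1 to 44.0), or 5.44 times the mean in HD and 8.29 times in Ctrl, the lowest ratio of the 7 genes at 0.656 (0.384 to 1.12). Its peaks (HD chr11:3797556-3797917, Ctrl chr11:3797597-3797982) began in the gap between NUP98 and PGAP2 and ran over the end of PGAP2, to which their summits were nearer. NUP214, a nucleoporin of the cytoplasmic filaments, had an HD peak (chr9:131125406-131125633) of 31 fragments, 5.62 times the mean (3.82 to 7.98). NUP50, a basket protein that binds importin alpha, had an HD peak (chr22:45163813-45164020) of 36 fragments, 6.53 times the mean (4.57 to 9.04). The local background there was 11.2 fragments on the same scale, and NUP50-DT shares the peak. RANBP2, the large SUMO ligase of the cytoplasmic filaments, had a Ctrl peak (chr2:108719385-108719601) of 27 fragments, 7.22 times the mean (4.76 to 10.5), and no HD peak lay within 894 kb of it. The nearest Ctrl peak was 248 kb from the NUP214 peak and 91.2 kb from the NUP50 peak.

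**Figure D2:**
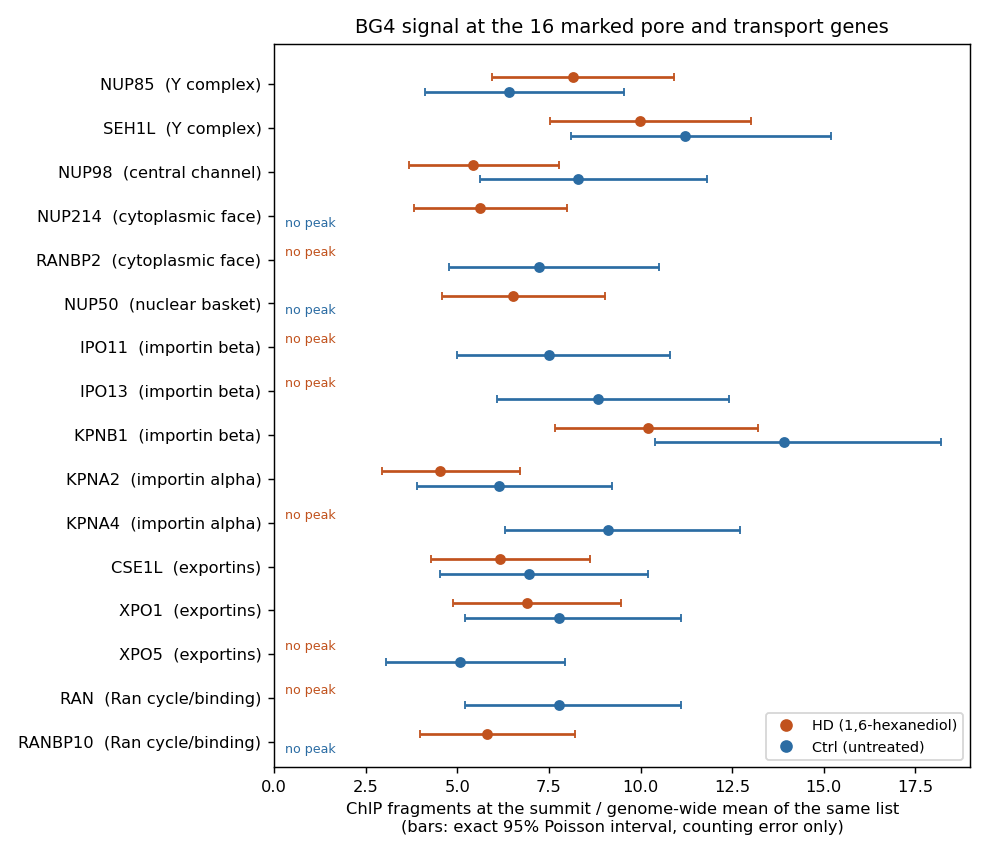
ChIP fragments at the summit as a multiple of the genome-wide mean of the same list, for HD (orange, upper) and Ctrl (blue, lower), with exact 95% Poisson intervals for counting error, over the 16 marked genes ordered by role. KPNB1 was highest in both lists, at 10.2 in HD and 13.9 in Ctrl, and the HD and Ctrl intervals overlapped at all 7 genes with both peaks.

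At the 7 genes marked in both lists the HD and Ctrl peaks overlapped, with 140 to 680 bp in common. The HD to Ctrl ratio of multiples had a median of 0.887 and ran between 0.656 at NUP98 and 1.27 at NUP85, and 6 of the 7 were below 1. The median over the 843 overlapping pairs at coding gene ends was 0.889, of which 72.7% were below 1. The 7 genes lay within the 5.22nd to 97.2nd percentiles of these pairs. All 7 intervals included 1. When the fragments were instead divided by the local background, the median was 0.871 and 4 of the 7 were below 1. By that measure the 843 pairs had a median of 0.913, and 60.4% were below 1. The direction turned at SEH1L (0.888 by genome-wide mean, 1.35 by local background) and at CSE1L (0.887 by genome-wide mean, 1.13 by local background).

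**Figure D3:**
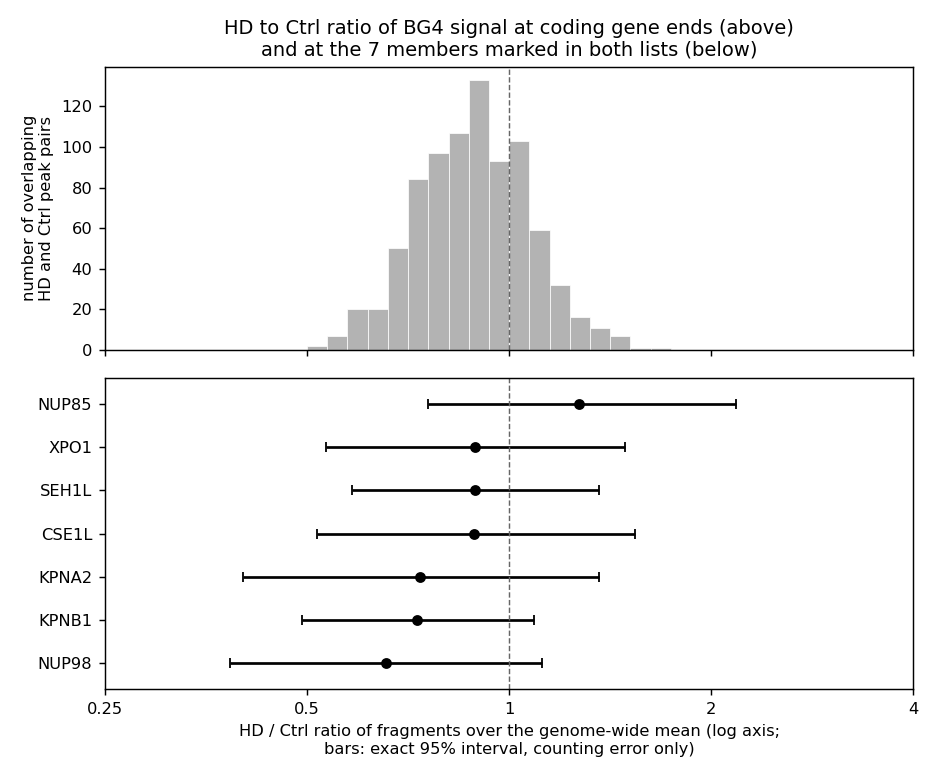
Above, the HD to Ctrl ratio of multiples of the genome-wide mean over 843 overlapping peak pairs at coding gene ends. Below, the same ratio at the 7 genes marked in both lists with exact 95% intervals for counting error, on a shared log axis. The 7 points lie between 0.656 and 1.27 and their intervals all cross 1.

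The local background also enters a peak call, and fragment numbers at sites without a peak were not analysed here. A missing peak in 1 list therefore does not measure a loss. Over the 10 HD members the median was 35.0 fragments (25 to 56), beside 36.0 over all 1318 HD peaks at coding gene ends. Over the 13 Ctrl members it was 29.0 (19 to 52), beside 27.0 over 1811 such Ctrl peaks.

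All peaks at genes with a known strand lay at the end where transcription starts. In HD 8 of 10 members, and in Ctrl 10 of 13, had the summit at most 250 bp away from the marked end, KPNB1 and KPNA4 of unknown strand included. The farthest were at KPNA2 in HD, 326 bp, and at NUP85 in Ctrl, 368 bp. Every count of marked members was therefore the same with a window of 500 bp. Beyond the window, after RANBP1, the nearest peak to an end of an unmarked gene was 10.0 kb away in HD, at GLE1, and 4.52 kb away in Ctrl, at RANBP3L. Summits of the KPNA2 peaks were 260 bp apart and those of NUP85 were 128 bp apart, while those of SEH1L were 3 bp apart.

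**Figure D4:**
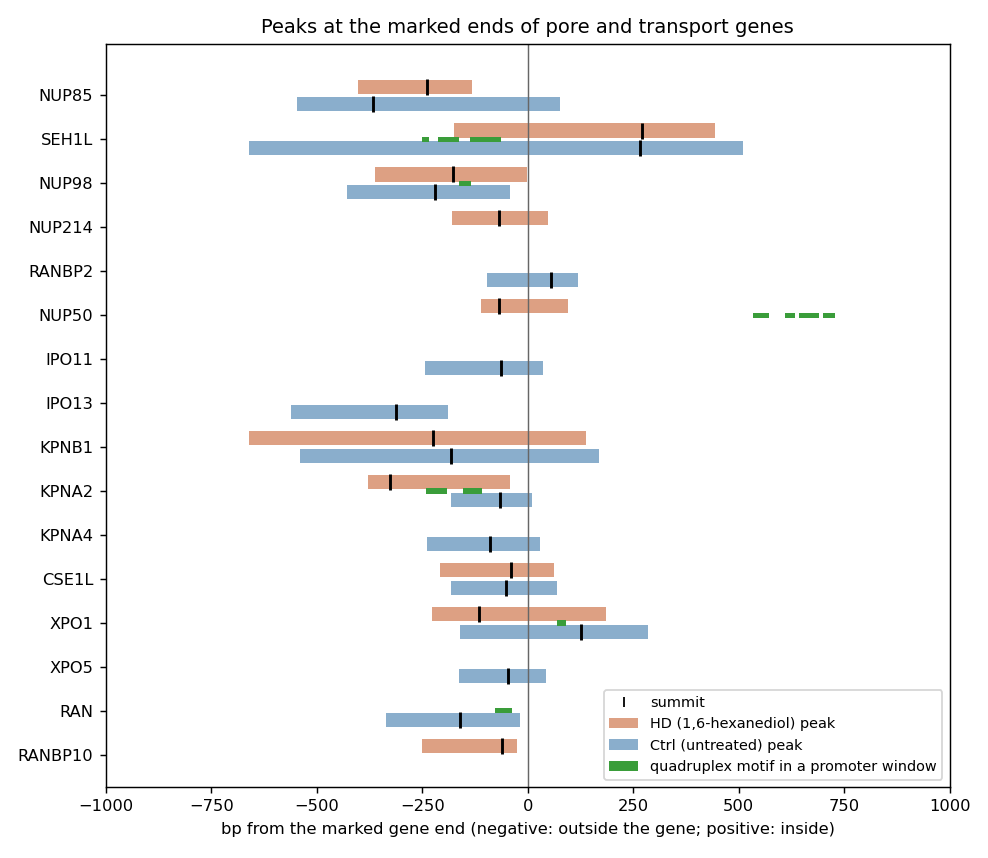
Extent of the HD (orange, upper) and Ctrl (blue, lower) peaks in bp from the marked gene end, negative outside the gene, with summits as black ticks and quadruplex motif matches in the searched promoter windows in green. KPNB1 and KPNA4 had no promoter sequence to search. Of the 23 summits, 18 lay within 250 bp of the gene end, and the motif stretches of NUP50 lie inside the gene away from its peak.

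Genes of neighbouring processes were counted in the same way, and their counts stand beside shares of 8.11% in HD, 10.9% in Ctrl and 5.20% in both over all protein-coding genes. With lists of 10 to 23 genes, these counts are not results about the lists. Of 10 further pore and transport genes, 2 were marked in HD and 1 in Ctrl. NUTF2, which imports Ran, was marked in both, with 24 fragments in HD and 25 in Ctrl (4.35 times the mean in HD and 6.69 times in Ctrl), in peaks shared with CENPT. AHCTF1 (ELYS), which seeds pore assembly on chromatin, was marked in HD only, with 32 fragments. Of 23 mRNA export genes, CHTOP (26 fragments) and PCID2 (28) were marked in HD and ALYREF (30) and MCM3AP (21) in Ctrl, with none in both. The CHTOP peak was shared with S100A13, the ALYREF peak with ANAPC11 and the MCM3AP peak with YBEY. Of 22 lamina and envelope genes, 3 were marked in HD and 4 in Ctrl. LMNB1 (lamin B1) had 40 fragments in HD and 32 in Ctrl, or 7.26 times the mean in HD and 8.56 times in Ctrl. EMD (emerin) had 26 fragments in HD and 18 in Ctrl, or 4.72 times the mean in HD and 4.82 times in Ctrl. LBR, the lamin B receptor, was marked in HD only (31 fragments), and TMEM43 (19) and TOR1AIP1 (20), both of the inner nuclear membrane, in Ctrl only. The LMNB1 peaks were shared with LMNB1-DT, the TMEM43 peak with CHCHD4 and the TOR1AIP1 peak with LOC139427322.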

How the data were processed

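BG4 ChIP-seq of HD-treated and untreated U2OS cells was deposited as 1 narrowPeak list for HD and 1 for Ctrl, each named in the labels of both its ChIP libraries. Input tracks were not used. Alignment tools and build (Bowtie2 2.5.0, SAMtools, hg38), read checks (FastQC 0.11.9) and the peak caller (MACS2 2.2.7.1) are listed in the submitters' processing notes. Their settings are unknown here. The lists as deposited give a fold (ratio of summit pileup to local background), −log10 p and −log10 q, a summit position in bp, and a score deposited by the authors, which was not used. The lowest deposited −log10 q was 1.30 in HD and 1.31 in Ctrl.

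The authors' fold was taken to be pileup plus 1 over expectation plus 1, their p-value to be a Poisson tail, and the pileup to be a whole number of fragments times a scale (0.715 in HD, 0.927 in Ctrl). A whole number matched −log10 p within 0.01 for 99.7% of peaks in each list, and for every peak at a member it was the only one. Dividing the genome-wide expectation (3.94 in HD and 3.46 in Ctrl) by the scale gave the mean of 5.51 fragments in HD and 3.74 in Ctrl. The local background is the expectation at a summit divided by the scale, and only values not below that mean were accepted. The recovery was tested on simulated data. Reads carry no stated molecular identifiers. With 1 list per condition, intervals on fragments (Poisson) and ratios (Clopper-Pearson) cover counting error only. Intervals on shares (Clopper-Pearson) treat genes as independent draws.

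Genes came from a RefSeq table of GRCh38.p14 without scaffold genes. Peaks were matched by at least 1 bp. The members, lists and measures were chosen with earlier results of these data known. All marked members and marked pathway genes are named, with genes sharing their peaks. No test was run, since there is 1 list per condition. Alternatives changed the window, the threshold, the list length, the use of summits, the genes per peak, the start sites and the motif. Python 3.11.15, numpy 2.4.6, pandas 2.3.3 and scipy 1.17.1 were used.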

Additional observations from a re-analysis of the deposited data

How the results depend on the processing

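Of 29 alternative values, 28 stayed within 1.5 times the reported one. The exception was the number of genes with a quadruplex motif, which was 54 with runs of at least 2 G, against 21 with runs of 3. The number of marked members ran from 8 to 11 in HD and from 10 to 14 in Ctrl, and that in both lists from 5 to 8. Under the same settings, 6.57% to 8.66% of all protein-coding genes were marked in HD and 7.83% to 11.8% in Ctrl. The 11.8% is with start sites only, over genes with a promoter sequence. At a −log10 q of at least 3, KPNA2 and NUP50 were no longer marked in HD. With equal list lengths XPO5, KPNA2 and NUP85 were no longer marked in Ctrl, where 15.4% of members and 7.83% of all genes were marked. Giving each peak to its nearest gene took NUP98 out of both lists. With start sites only, RANGAP1 was added in Ctrl, and KPNB1 and KPNA4 had no sequence entry. With reciprocal overlap of at least 50%, 5 genes kept overlapping peaks. The alternatives for the HD to Ctrl ratio and for the fragment medians were chosen after seeing the data.

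No paired analysis was possible because each condition has 1 peak list, and no value per library was used. For the same reason every value is without a replicate. At 19 to 56 fragments per summit, an interval on the HD to Ctrl ratio of 1 gene is wide, as at KPNB1 (0.492 to 1.09).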

Other observations

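Both lists hold a peak inside the RANBP2 gene model at other genes. RefSeq extends RANBP2 over other genes, and an HD peak of 41 fragments (7.44 times the genome-wide mean) and a Ctrl peak of 37 (9.90 times) lie there at the ends of SEPTIN10 and SOWAHC, 228 kb from the nearest RANBP2 end. A further Ctrl peak of 21 fragments lies within SH3RF3. RANBP10 and NUTF2 are near each other on chromosome 16. The Ctrl peak nearest to the RANBP10 peak, 39.7 kb away, was that of NUTF2, which was marked in both lists.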
